A study of Mus musculus with 2 samples.

Results

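The endothelial identity genes are 10 of the 19465 genes measured: Pecam1, Cdh5, Tek, Tie1, Eng and Egfl7 as pan-endothelial members, Sox17 as the arterial member, Vwf and Emcn as the venous and endocardial members, and Lyve1 as the lymphatic member. They were taken by symbol under a rule that uses no measured value, although earlier results of these data were known when the panel was set, and all 10 had at least 20 unique molecular identifiers (UMIs, counted probe molecules) over both sections. Expression was measured in formalin-fixed, paraffin-embedded heart sections of 5 µm with the Visium CytAssist assay, in which the bound gene probes are transferred to a grid of spots with known barcodes. Each spot is a small region that holds several cells. The study asks what excess topoisomerase IIβ (TOP2B) in cardiomyocytes does to the heart, and here 1 section of 1 control mouse stands against 1 section of 1 TOP2B transgenic mouse.

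The control mouse was α-MHC-MerCreMer+/−, and the transgenic mouse was α-MHC-MerCreMer+/− TOP2B LSL/−. Both carried the tamoxifen-activated Cre under the cardiomyocyte α-MHC promoter, and both received 1 intraperitoneal dose of 80 mg/kg tamoxifen. In the transgenic mouse the Cre removes a stop cassette in front of a CAG-driven human TOP2B cDNA at the Rosa26 locus, so the change was directed to cardiomyocytes and not to endothelial cells. Per the study's methods, the acute model used 6-week-old mice with same-age siblings as controls. The time from tamoxifen to harvest of these hearts is not given in the sources used here. With 1 section per genotype there was no replicate and no test, and every 95% interval below covers counting error only.

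Endothelial cells line all vessels and, as endocardium, the chambers of the heart. They hold to each other through junction proteins such as VE-cadherin and PECAM1, and they read blood-borne and mural ligands through receptors such as TIE2 and endoglin. In the heart most endothelial cells are capillary cells between the cardiomyocytes, and arterial, venous, endocardial and lymphatic cells each add genes of their own to the shared program.

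RefSeq promoter sequences (build GRCm38.p6) were given for 5 of the 10 members, namely Eng, Emcn, Tek, Tie1 and Egfl7. The 250 bases before the annotated start are printed for the first 4. Tek and Tie1, a receptor pair, differed in their ratio between the sections. Relative to all UMIs of the spots, Eng and Emcn were both higher along gaps in the tissue than inside it in the transgenic section. Capitals mark AGGAAG or its reverse complement CTTCCT, a motif of the ETS type. ETS factors bind around GGAA and take part in endothelial gene control. The Eng sequence lies at chr2:32646345-32646594 (plus strand), the Emcn sequence at chr3:137340828-137341077 (plus strand), the Tek sequence at chr4:94739039-94739288 (plus strand) and the Tie1 sequence at chr4:118489850-118490099 (minus strand), each written 5′ to 3′ in the direction of the gene.
Eng: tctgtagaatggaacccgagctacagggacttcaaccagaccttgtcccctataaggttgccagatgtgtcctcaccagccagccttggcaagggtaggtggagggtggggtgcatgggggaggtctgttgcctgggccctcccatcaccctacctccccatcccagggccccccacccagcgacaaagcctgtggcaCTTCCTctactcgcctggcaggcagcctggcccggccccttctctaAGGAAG
Emcn: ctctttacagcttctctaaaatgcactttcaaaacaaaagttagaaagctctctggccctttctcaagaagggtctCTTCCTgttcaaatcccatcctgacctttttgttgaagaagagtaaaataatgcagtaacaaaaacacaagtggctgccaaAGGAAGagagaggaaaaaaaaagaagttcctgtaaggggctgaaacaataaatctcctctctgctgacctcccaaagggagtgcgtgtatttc
Tek: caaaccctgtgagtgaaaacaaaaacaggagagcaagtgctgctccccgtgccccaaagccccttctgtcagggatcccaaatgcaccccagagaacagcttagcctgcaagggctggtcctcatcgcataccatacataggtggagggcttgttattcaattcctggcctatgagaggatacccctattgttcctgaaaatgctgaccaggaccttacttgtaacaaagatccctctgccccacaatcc
Tie1: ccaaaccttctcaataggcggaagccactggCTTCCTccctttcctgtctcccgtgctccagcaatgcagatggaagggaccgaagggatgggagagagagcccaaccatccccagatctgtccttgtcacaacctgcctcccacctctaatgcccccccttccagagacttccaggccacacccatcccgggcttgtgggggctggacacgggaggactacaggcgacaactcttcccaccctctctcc
The motif stood 2 times in the Eng window and 2 times in the Emcn window, 1 time in the Tie1 window and not in the Tek window, and it was found in 2 of 3 windows of Egfl7. Of 32851 windows of the same length over all genes, 29.5% held it on either strand. A match describes these letters and does not mark a bound site.

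The control section held 1256 spots with 14376300 UMIs in all, and the transgenic section 924 spots with 12953389 UMIs. The median spot had 11335.5 and 14531 UMIs. Both sections had gaps enclosed by tissue, which can be a chamber, a vessel or a tear, and the largest gap spanned 78 array positions in the control and 154 in the transgenic section. The sections used the same array layout, so that 725 barcodes occur in both, and these name positions, not shared cells. Cardiomyocyte genes marked both sections, with Myh6 (α-myosin heavy chain) at 18470 and 5734 CPM (UMIs per 1000000 of the section). Erythroid genes summed to 2146 CPM (control) and 20437 CPM (transgenic), and the 10% of transgenic spots richest in them held 68.5% of these UMIs. The mouse Top2b probes, which do not check the human transgene, gave 106 and 102 CPM. The 4 Y-linked genes measured, Ddx3y among them, were at 0 in both sections, and Xist was not analysed here.

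Vwf, which encodes the clotting glycoprotein von Willebrand factor, was the member that differed most, at 18.6 CPM (control) and 104 CPM (transgenic), or 5.59-fold higher. Sox17, an arterial transcription factor, was 1.93-fold higher, Eng was 1.62-fold higher and Pecam1 1.38-fold higher. Tie1 was lower, at 0.748-fold, with its interval below 0. The summed level of the 6 pan-endothelial members differed little, at 747 CPM (control) and 865 CPM (transgenic), which is 0.21 on the log2 scale (95% interval 0.17 to 0.25). In sections of this kind, fewer or more endothelial cells and less or more RNA per cell cannot be told apart.

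Over the panel, 8 of 10 members had a higher CPM in the transgenic section (7 with TMM or DESeq2 factors, Cdh5 then being lower), where 63.2% of the 15236 genes with at least 20 UMIs did so, and 2 of 10 were lower, where 36.8% were. The counting interval lay above 0 for 6 members (39.4% of all genes) and below 0 for 1 member, Tie1 (17.0% of all genes). With TMM factors it lay above 0 for 4 members, Pecam1, Vwf, Eng and Sox17 (30.8% of all genes), and below 0 for 3, Cdh5, Tie1 and Egfl7 (23.1% of all genes). DESeq2 factors and scaling to the median gene gave the same 4 and 3. The DESeq2 factor came out as 1 for each section, so that setting compares raw UMI sums without a correction for depth. At least 2-fold higher was 1 member, Vwf, against 13.7% of all genes, and no member was at least 2-fold lower, against 5.61% of all genes. The median log2 ratio of the 10 members was 0.37, beside 0.20 over all genes, so the panel as a whole stood near the background and its single genes spread from -0.42 to 2.48. TMM factors would move every log2 ratio by -0.16, and ratios are given here without that shift. A log2 ratio at or above that of Vwf was found for 296 genes, or 1.94% of those with at least 20 UMIs.

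Each section was also split into 4 quadrants around the midpoint of its spots, which are parts of 1 section and not replicates. For 5 members, Pecam1, Tek, Vwf, Eng and Sox17, every transgenic quadrant lay above every control quadrant, where 30.4% of all genes did so. For 1 member, Tie1, every transgenic quadrant lay below, where 13.1% of all genes did so. Cdh5, Egfl7, Emcn and Lyve1 overlapped. With TMM factors Tek overlapped as well, and relative to the median gene 2 members, Vwf and Sox17, lay above and 2, Cdh5 and Tie1, below. The share of all genes was not counted under these scalings, so these counts have no background.

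**Figure D1:**
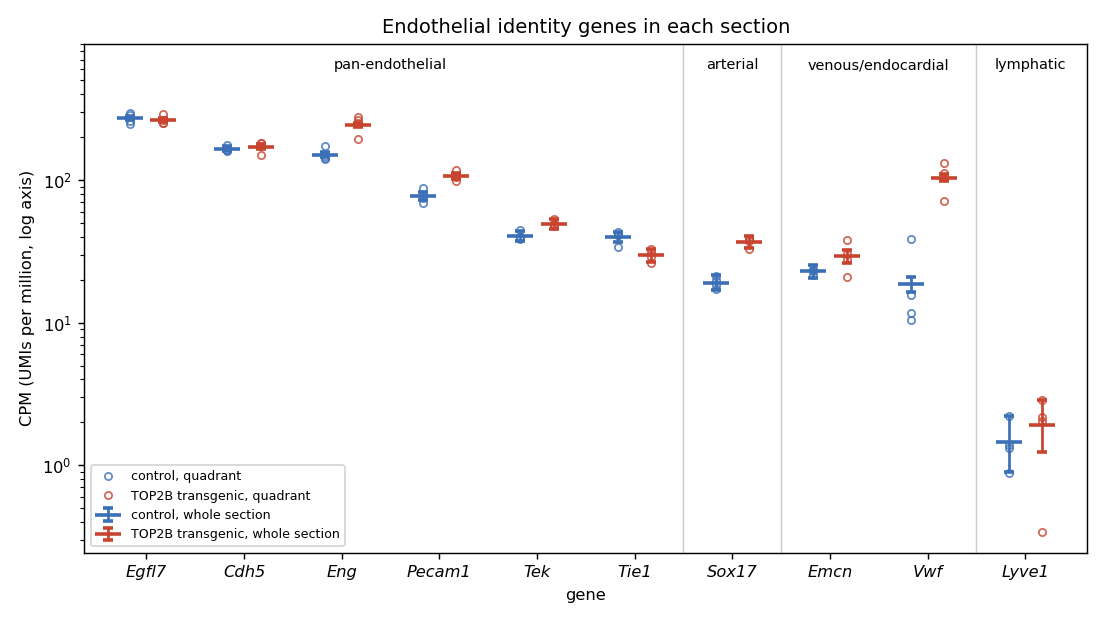
CPM on a log axis of each identity gene in the control (blue) and TOP2B transgenic (red) section, with horizontal lines for the whole section, error bars for its 95% counting interval and open circles for the 4 quadrants; quadrants at 0 would not be drawn. Vwf stands at 18.6 and 104 CPM with no overlap of quadrants, while Cdh5 and Egfl7 lie on top of each other.

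Among the junction and matrix members, Cdh5 and Egfl7 were close to equal in CPM between the sections and Pecam1 was higher. Cdh5, which encodes VE-cadherin of endothelial adherens junctions, had 2386 UMIs in the control (166 CPM) and 2223 in the transgenic section (172 CPM), with a log2 ratio of 0.05 (-0.04 to 0.13). Its control quadrants were at 161, 163, 177 and 163 CPM and its transgenic quadrants at 182, 150, 182 and 175 CPM. The groups of quadrants overlapped, and the direction of Cdh5 turned to -0.11 with TMM factors and to -0.15 relative to the median gene.

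Egfl7, a secreted endothelial protein of the vessel matrix, had 3918 UMIs in the control and 3407 in the transgenic section. This gave 273 and 263 CPM and a log2 ratio of -0.05 (-0.12 to 0.02), or -0.21 (-0.27 to -0.14) with TMM factors. Pecam1, an adhesion molecule of endothelial junctions that platelets and some leukocytes also carry, was at 77.6 and 107 CPM, a log2 ratio of 0.46 (0.35 to 0.58). Its control quadrants were at 87.5, 75.0, 69.4 and 78.8 CPM and its transgenic quadrants at 97.8, 105, 107 and 118 CPM. The lowest transgenic quadrant thus lay above the highest control quadrant.

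Of 15 further junction genes, 14 had at least 20 UMIs, of which 10 were higher (63.2% of all genes) and 4 lower. Their median log2 ratio was 0.42 (0.20 over all genes). The lowest was Ctnna1 (α-catenin, which also serves cardiomyocyte junctions) at -0.76, and the highest was Cldn5, the tight junction claudin of endothelium, at 1.26. Cldn5 had 49.9 CPM (control) and 120 CPM (transgenic). Cdh5, at 0.05, and Cldn5, at 1.26, thus did not share 1 ratio, but each is 1 gene and does not stand for its type of junction.

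The TIE receptors differed in their ratio to each other. Tek encodes TIE2, the angiopoietin receptor, and had 584 UMIs in the control and 640 in the transgenic section, or 40.6 and 49.4 CPM. Its log2 ratio was 0.28 (0.12 to 0.45), but 0.13 (-0.04 to 0.29) with TMM factors and 0.08 (-0.08 to 0.24) relative to the median gene, where the interval held 0. Tie1 encodes the related receptor that binds no angiopoietin tightly by itself and modulates TIE2, and it had 571 and 385 UMIs, or 39.7 and 29.7 CPM, with a log2 ratio of -0.42 (-0.61 to -0.23). Within a section the 2 genes can be set against each other without any scaling between sections. There were 1.02 Tek UMIs per Tie1 UMI in the control (0.91 to 1.15) and 1.66 in the transgenic section (1.46 to 1.89), and these intervals did not overlap.

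Tie1 was at 43.0, 34.1, 41.1 and 41.1 CPM in the control quadrants and at 31.5, 26.2, 29.1 and 33.0 CPM in the transgenic quadrants. Tek was at 44.8, 39.1, 40.0 and 38.9 CPM in the control and at 53.0, 47.5, 48.6 and 49.1 CPM in the transgenic section. Both genes were thus separated by quadrant in CPM, in opposite directions, and with TMM factors Tie1 still was and Tek was not.

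Eng encodes endoglin, a coreceptor for TGF-β and BMP ligands that activated endothelium, macrophages and some fibroblasts also express. It had 2170 UMIs in the control and 3163 in the transgenic section. These were 151 and 244 CPM, and the log2 ratio was 0.69 (0.61 to 0.77). The control quadrants were at 173, 141, 147 and 144 CPM and the transgenic quadrants at 276, 194, 252 and 262 CPM. In the same sections the fibroblast list summed to 2299 and 6732 CPM, with 12 of 12 genes higher (63.2% of all genes) and none at 0. The macrophage list summed to 303 and 578 CPM, with 10 of 11 genes higher (63.2% of all genes) and none at 0. The part of these cells in the Eng and Pecam1 levels was not tested.

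Ligands and partners of TIE2, TIE1 and endoglin were all higher in the transgenic section where they could be compared, also with TMM factors. Of 14 such genes, 12 had at least 20 UMIs, 12 of 12 were higher (63.2% of all genes) and the median log2 ratio was 0.93 (0.20 over all genes). The angiopoietins were low, with Angpt1 at 0.90 and 2.86 CPM (log2 ratio 1.66, 0.71 to 2.70), Angpt2 at 5.56 and 6.95 CPM (0.32, -0.13 to 0.77) and Angpt4 at 0.77 and 1.93 CPM (1.33, 0.26 to 2.51). Svep1, an extracellular protein that binds TIE1, was at 16.3 and 128 CPM, the highest log2 ratio of the list at 2.97. Ptprb, the endothelial phosphatase VE-PTP that acts on TIE2, had a log2 ratio of 0.68.

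On the endoglin side, the TGF-β and BMP receptors Acvrl1 (ALK1), Tgfbr2 and Bmpr2 had log2 ratios of 0.63, 0.93 and 0.92. Tgfb1, a ligand, stood at 49.0 and 122 CPM with a log2 ratio of 1.31. The response genes Id1, Id3 and Smad6 had log2 ratios of 0.40, 0.91 and 2.00, the last from 13.6 and 54.3 CPM. The ALK1 ligands Bmp10, with 9 and 9 UMIs, and Gdf2, with 13 and 4 UMIs, were too sparse to compare. These receptors and response genes were higher, as Eng was and as 63.2% of all genes were. Which cells held these UMIs was not tested.

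Sox17 marks arterial endothelium. It had 275 UMIs in the control and 478 in the transgenic section. These were 19.1 and 36.9 CPM, and the log2 ratio was 0.95 (0.73 to 1.17). The control quadrants held 19.9, 18.4, 21.1 and 17.2 CPM and the transgenic quadrants 37.6, 32.8, 38.7 and 38.8 CPM. Sox17 was thus even among the quadrants within each section and separate between the sections, and per Cdh5 UMI it went from 0.12 (0.10 to 0.13) to 0.22 (0.19 to 0.24).

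Of 19 other arterial genes, all with at least 20 UMIs, 16 were higher (63.2% of all genes) and 3 lower. At least 2-fold higher were 5 (13.7% of all genes), and the median log2 ratio was 0.62 (0.20 over all genes). The gap junction genes Gja4 and Gja5, which mark arteries and, for Gja5, conduction tissue, had log2 ratios of 1.41 and 0.99. The highest was Fbln5, an elastic fiber gene that mural cells and fibroblasts also express, at 2.67, and the lowest was Gkn3 at -1.39, from 32 and 11 UMIs. Smooth muscle genes summed to 835 and 790 CPM in the control and transgenic section, with 5 of 8 higher (63.2% of all genes) and none at 0. Pericyte genes summed to 938 and 787 CPM, with 3 of 8 higher (63.2% of all genes) and none at 0. Both sums lean on single genes. The smooth muscle genes ranged from Smtn at -0.95, from 358 and 185 CPM, to Cnn1 at 2.74, from 3.13 and 20.9 CPM. The pericyte genes ranged from Abcc9 at -1.58, from 254 and 85.3 CPM, to Cspg4 at 0.41. The sums are therefore no measure of the number of mural cells.

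In the control section Sox17 stood higher beside other arterial genes, and in the transgenic section it did not. In the 10% of spots richest in the other arterial genes it was at 31.2 CPM against 17.9 CPM elsewhere in the control, with a log2 ratio of 0.80 (0.29 to 1.28). The transgenic levels were 36.5 and 37.0 CPM, with a log2 ratio of -0.02 (-0.48 to 0.41). Fbln5 held 387 of the 6990 UMIs of the arterial list in the control and 2219 of 11748 in the transgenic section. The arterial spots of the 2 sections thus rest on a different mix of genes, and the list was not used without Fbln5. In the spots richest in smooth muscle genes the log2 ratio was 0.57 (0.04 to 1.07) in the control and -0.47 (-0.997 to 0.014) in the transgenic section, and whether the sections differed in this was not tested.

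Vwf is stored and secreted mainly by venous, arterial and endocardial endothelium, more than by capillaries, and by megakaryocytes and platelets. It had 268 UMIs in the control and 1349 in the transgenic section, with a log2 ratio of 2.48 (2.29 to 2.68). The control quadrants were at 38.4, 10.4, 11.7 and 15.5 CPM and the transgenic quadrants at 131, 71.9, 112 and 106 CPM. Control Vwf was thus uneven, with 1 quadrant well above the others, and even this quadrant lay below the lowest transgenic quadrant. Per Cdh5 UMI, Vwf went from 0.11 (0.10 to 0.13) to 0.61 (0.57 to 0.65).

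A Vwf UMI was found in 187 of 1256 control spots, or 14.9% (12.96 to 16.98), and in 533 of 924 transgenic spots, or 57.7% (54.4 to 60.9). After thinning every spot to 8134 UMIs, which left out 140 and 78 shallower spots, the shares were 10.7% and 44.6%. The richest spot held 6 UMIs in the control and 24 in the transgenic section. Over the panel, 9 of 10 members had a UMI in a larger share of transgenic spots, where 76.4% of all genes did so, and 9 of 10 after thinning, where 64.2% did so, and Tie1 was the exception at 36.1% and 33.1%.

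Blood markers were read beside Vwf. The platelet list summed to 16.4 CPM (control) and 25.8 CPM (transgenic), with no gene at 0 in either section. Of its 10 genes 8 were higher (63.2% of all genes), with 3 intervals above 0 (39.4% of all genes). In control spots with a Vwf UMI the list was at 21.8 CPM against 15.5 CPM in the others, a log2 ratio of 0.50 (0.005 to 0.97). In the transgenic section it was at 23.5 against 29.2 CPM, a log2 ratio of -0.32 (-0.64 to 0.002), and this interval held 0. In the 10% of spots richest in erythroid genes Vwf was at 46.2 CPM against 16.4 CPM elsewhere in the control, and at 173 against 99.7 CPM in the transgenic section. Counted the other way, the hemoglobin gene Hba-a2 was at 1662 CPM in control spots with a Vwf UMI and 1655 CPM in the others. In the transgenic section it was at 9936 and 23729 CPM. Erythroid genes made up as much as 88.4% of the UMIs of a transgenic spot, which leaves fewer UMIs in which Vwf can be found. The split by a Vwf UMI therefore cannot show how blood and Vwf relate. The part of platelets and blood-rich spots in the Vwf level was not tested. Of the endothelial genes read in this split, Plvap and Npr3 had the highest log2 ratios in both sections. Kdr (-0.06 in each section) and Sox17 (-0.01 in the control and -0.15 in the transgenic section) had intervals that held 0. Which cells held the Vwf UMIs was not tested. Plvap was at 40.0 CPM in control spots with Vwf and 11.1 CPM in the others, and at 71.1 and 29.8 CPM in the transgenic section.

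Emcn encodes endomucin, a surface mucin of venous, capillary and endocardial endothelium that larger arteries lack. It had 330 UMIs in the control and 378 in the transgenic section. These were 23.0 and 29.2 CPM, and the log2 ratio was 0.35 (0.13 to 0.56), or 0.19 (-0.03 to 0.41) with TMM factors. The control quadrants were at 23.1, 23.7, 23.3 and 21.7 CPM and the transgenic quadrants at 38.3, 21.0, 30.5 and 28.2 CPM. The quadrants overlapped, and the spread among the transgenic quadrants was wider than among the control quadrants. With the transgenic rings from the edge weighted as in the control section, the log2 ratio of Emcn was 0.14. The deepest transgenic ring, which that weighting counts most, held 9 Emcn UMIs.

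Of 12 further endocardial genes, 10 were higher (63.2% of all genes) and 2 lower. At least 2-fold higher were 6 (13.7% of all genes), and the median log2 ratio was 1.02 (0.20 over all genes). Npr3, the natriuretic peptide clearance receptor of endocardium, was at 21.2 and 57.4 CPM. Plvap, which forms the diaphragms of fenestrae and caveolae and is on the endocardial and venous lists, was at 15.4 and 54.4 CPM, a log2 ratio of 1.82 (1.60 to 2.04). The highest was Postn at 4.81, a matrix gene that activated fibroblasts express, and the lowest was Cytl1 at -1.43. Of 9 venous genes 6 were higher, close to the 63.2% of all genes, with a median of 0.43. The venous factor Nr2f2 was at 7.72 and 15.1 CPM, and the lowest venous gene was Aplnr at -1.16.

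**Figure D2:**
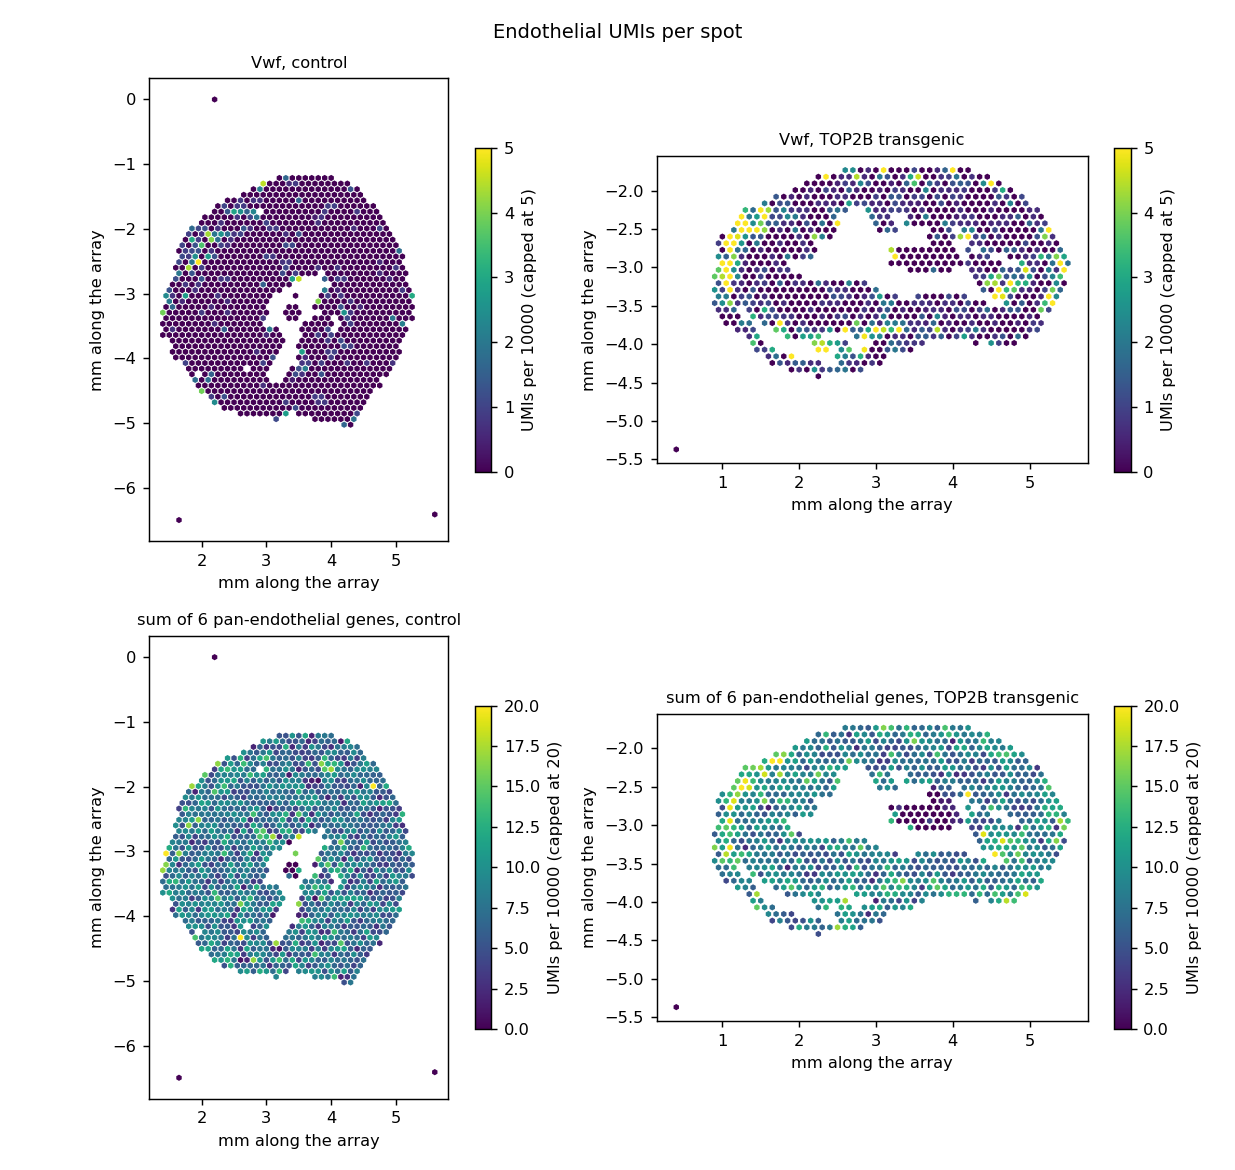
Spot maps of Vwf (top, capped at 5 UMIs per 10000 of the spot) and of the 6 pan-endothelial genes summed (bottom, capped at 20) in the control (left) and TOP2B transgenic (right) section, with axes in mm of the array at the standard spacing. Vwf lies along edges and in patches, in 14.9% and 57.7% of spots, while the pan-endothelial sum is spread through both walls, with a cluster of spots low in it inside the transgenic gap.

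Vwf was more alike between neighboring spots than each pan-endothelial member in the control, and in the transgenic section Eng came close to it. Likeness between neighboring spots, given by the deposited Moran's I, was 0.16 for Vwf in the control, rank 42 of 19219 genes, and 0.28 in the transgenic section, rank 458 of 19227. Eng went from 0.03 to 0.27, Egfl7 from 0.01 to 0.23 and Cdh5 from 0.01 to 0.13. The score of the 99th percentile gene was 0.07 in the control and 0.46 in the transgenic section, so high scores were more common in the latter and the raw values cannot be set against each other as a change of these genes alone. The 10% of spots with the most Vwf held 77.2% of its UMIs in the control, where a constant rate would give 57.6%, and 46.2% in the transgenic section, where it would give 27.6%.

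From the edge inward, Vwf was lower in both sections. Rings were counted from the nearest array position without tissue, inside or outside the section, with ring 1 at the edge. Control Vwf was at 37.2, 21.8, 20.2, 18.4 and 9.24 CPM in rings 1, 2, 3, 4 and 5 or deeper, and transgenic Vwf at 137, 120, 86.9, 58.1 and 38.2 CPM. In every ring the transgenic section was 3.16 to 5.50 times the control. Even the deepest transgenic ring, with 29 spots, was at the level of the control edge.

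The sections differed in shape, and ring 1 held 18.3% of control and 33.7% of transgenic spots. With the transgenic rings weighted by the control section's UMIs, Vwf stood at 78.1 CPM, which is 4.19-fold the control level in place of 5.59-fold. The deepest ring took 36.1% of this weight, but in the transgenic section it was 29 spots with 17 Vwf UMIs. Rings also reached 9 in the control and 5 in the transgenic section, so the deepest group is not of equal depth. No interval was computed for weighted values. The same weighting moved Eng from a log2 ratio of 0.69 to 0.50 and Sox17 from 0.95 to 1.10, and left Tie1 at -0.42. Plvap and Npr3 were also highest at the edge and lowest in the deepest ring of both sections, and Plvap went from 38.2 to 5.58 CPM in the control and from 86.0 to 11.2 CPM in the transgenic section.

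Eng was lower ring by ring inward in the transgenic section, from 293 CPM in ring 1 through 266, 216 and 179 to 169 CPM in the deepest ring, and in the control it was at 170 CPM in ring 1 and 136 CPM in the deepest. Emcn in the transgenic section was at 35.4 and 33.3 CPM in the outer rings and at 18.9 and 20.2 CPM in the inner ones. Cdh5 stayed between 162 and 196 CPM over all rings of both sections. Sox17 had its lowest ring at the edge in both, at 13.4 and 33.5 CPM.

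**Figure D3:**
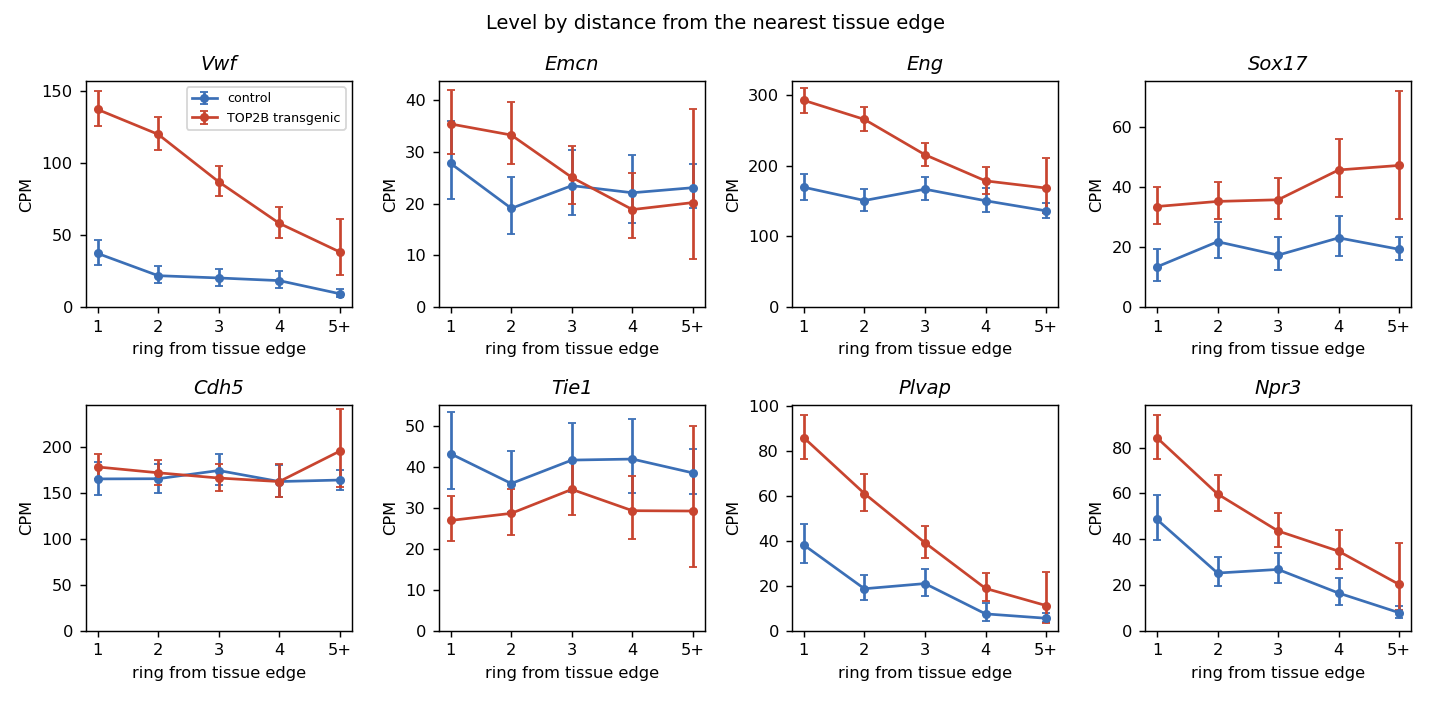
CPM of 8 endothelial genes by ring from the nearest tissue edge (1 at the edge, 5+ deepest) in the control (blue) and TOP2B transgenic (red) section, with 95% counting intervals. Vwf, Plvap and Npr3 are highest at the edge and lowest in the deepest ring of both sections, Eng and Emcn are higher at the edge than inside in the transgenic section, and Cdh5 stays between 162 and 196 CPM.

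Edges at an enclosed gap were also set apart from the outer surface and the interior. At the gap edge 6 members were higher than in the interior in the control (51.5% of all genes) and 4 in the transgenic section (38.1%). The interval lay above 0 for 2 members in the control, Vwf and Eng (4.63% of all genes), and for 3 in the transgenic section, Vwf, Emcn and Eng (3.09%). For 1 transgenic member, Egfl7, it lay below 0 (7.85%). Vwf was at 34.0 CPM at the gap edge and 15.6 CPM in the interior of the control, and at 131 and 91.3 CPM in the transgenic section. Emcn at the transgenic gap edge was at 44.7 CPM, against 26.7 CPM in the interior and 24.7 CPM at the outer edge.

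At the outer edge 6 members were higher than in the interior in the control (55.2% of all genes) and 6 in the transgenic section (57.3%). The interval lay above 0 for 2 control members, Vwf and Egfl7 (5.51% of all genes), and for 4 transgenic members, Cdh5, Vwf, Eng and Egfl7 (7.97%). Eng at the outer edge was at 138 CPM in the control, below its interior level of 148 CPM, and at 310 CPM in the transgenic section, above its interior level of 225 CPM. Edge spots held fewer UMIs. Counted as UMIs per spot, not CPM, 2 members in the control, Vwf and Eng, and 2 in the transgenic section, Vwf and Emcn, were higher at the gap edge. The transgenic log2 ratio at the gap edge was then 0.08 for Vwf in place of 0.52. It was 0.30 for Emcn in place of 0.74, and -0.12 for Eng in place of 0.32. The share of all genes was not counted in this way. Without the 10% of spots richest in erythroid genes, the log2 ratio of control Vwf at the gap edge was 0.66 in place of 1.12.

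Spots rich in other endocardial genes carried more Vwf than the other spots of their section, and in the transgenic section the difference was larger with Postn left out. Postn was left out of the endocardial list after its values were seen, since it held most of the list's UMIs in the transgenic section. In the 10% of spots richest in the list without it, Vwf was at 65.5 CPM against 14.4 CPM elsewhere in the control, and at 335 against 82.3 CPM in the transgenic section, log2 ratios of 2.18 (1.79 to 2.57) and 2.02 (1.85 to 2.20). Emcn differed between the sections in the same spots, with log2 ratios of 0.30 (-0.27 to 0.82) and 1.74 (1.38 to 2.08). Eng was at 234 and 144 CPM in the control and at 515 and 218 CPM in the transgenic section. With Postn kept, the log2 ratios in the transgenic section were smaller, at 0.48 (0.26 to 0.70) for Vwf, 0.31 (-0.15 to 0.75) for Emcn and 0.08 (-0.09 to 0.24) for Eng, and that of control Vwf was 2.13. In the spots richest in cardiomyocyte genes Vwf was lower than elsewhere, at 9.41 and 19.7 CPM in the control and at 57.2 and 109 CPM in the transgenic section.

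Across non-overlapping tiles of 6 by 6 array positions, 43 in the control and 36 in the transgenic section, the genes most like Vwf were Npr3, with a Spearman rho of 0.74 and 0.60, Igf2 (0.58 and 0.56) and Tm4sf1 (0.63 and 0.54). The median gene had a rho with Vwf of 0.01 and 0.12, and tiles of a section share its library. The gene most like the pan-endothelial sum was Emcn (0.47 and 0.46), followed by Zfp280d and Myom2. For Emcn itself these were Fabp5 (0.46 and 0.54), a fatty acid binding protein of endothelium, Car8 and Cldn12. They were the highest of 6784 and 6789 ranked genes, and the median rho with the pan-endothelial sum was 0.001 and 0.17. The scarce Lyve1 reached a similar rho with Gtf2e2 (0.41 and 0.47). The matches of the pan-endothelial sum and of Emcn are therefore no finding. Vwf and Eng had a rho of 0.42 and 0.64 with each other, and Vwf and Cdh5 of -0.12 and 0.02.

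Lyve1, the hyaluronan receptor of lymphatic endothelium and of some resident macrophages, was scarce. It had 21 UMIs in 21 control spots (1.46 CPM, 0.90 to 2.23) and 25 UMIs in 24 transgenic spots (1.93 CPM, 1.25 to 2.85), with a log2 ratio of 0.40 (-0.49 to 1.31). Its quadrants were at 0.88, 1.33, 2.22 and 1.39 CPM in the control and at 0.34, 2.88, 2.20 and 2.06 CPM in the transgenic section. They overlapped, a difference was not detectable at this depth, and the log2 ratio turned to -0.29 with the rings weighted as in the control. The deepest transgenic ring, which that weighting counts most, held 0 Lyve1 UMIs. The genes most like Lyve1 across tiles, Gtf2e2, Gmpr2 and Cbfa2t2, rest on these few UMIs and are no finding.

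Among the other lymphatic genes, Mmrn1 was as scarce as Lyve1, with 15 and 23 UMIs, and others were found more widely. Prox1, the lymphatic master regulator, which cardiomyocytes also express, was at 156 and 93.3 CPM and had a UMI in 81.1% of control and 66.2% of transgenic spots. Pdpn (podoplanin), also made by mesothelium and fibroblasts, was at 7.79 and 26.2 CPM, and Flt4 (VEGFR3) at 16.3 and 22.7 CPM. Of 10 lymphatic genes 8 were higher (63.2% of all genes), with a median log2 ratio of 1.04 (0.20 over all genes). They ranged from Prox1 at -0.74 to Ptx3 at 3.44, and Ccl21a was not analysed here. In the transgenic section a Pdpn UMI was found in 15 of 24 spots with Lyve1 (62.5%) and in 27.3% of the others, and in the control in 1 of 21 (4.76%) and 8.42%. Prox1 (in 19), Flt4 (in 11), Reln (in 5) and Mmrn1 (in 2) were also more frequent in these 24 transgenic spots than in the others. Fxyd6 was close to equal, in 18 of 24 and in 72.8% of the others, and Nts was in 0 of 24 and in 9.22%. The resident macrophage genes Cd163 (58.3% and 46.3%), Mrc1 (58.3% and 50%) and Timd4 (1 of 24 and 2%) were more frequent too. F13a1 was less frequent (6 of 24 and 46.8%). In the control, Prox1 was in 19 of 21 spots with Lyve1, Flt4 in 5, and Reln and Mmrn1 in 0. Of the 24 transgenic spots with Lyve1, 6 lay at the outer edge (25%), against 14.1% of the others. Transgenic Pdpn was at 60.1 CPM at the outer edge and 22.4 CPM in the interior. Whether spots with Lyve1 held lymphatic vessels was not tested. Resident macrophage genes summed to 392 and 811 CPM, with 6 of 9 genes higher (63.2% of all genes) and none at 0. Gas6 was the largest part of both sums, at 198 and 460 CPM. The interval lay below 0 for 3 of these genes (17.0% of all genes), and they ranged from Timd4 at -1.33 to Igf1 at 2.37. The sum thus does not stand for each of its genes, and their part in the Lyve1 count was not tested.

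In CPM the capillary list was the only one of the further endothelial lists with a median log2 ratio below 0. Of 14 capillary genes 5 were higher (63.2% of all genes) and 9 lower, with 9 intervals below 0 (17.0% of all genes) and a median log2 ratio of -0.40. Aplnr, the apelin receptor, was the lowest at -1.16, with 53.0 and 23.8 CPM, and Kcne3 the highest at 0.66, from 28 and 40 UMIs. Lpl and Fabp4, which are on this list, are expressed by cardiomyocytes or adipocytes as well. Kdr, the main VEGF receptor, was at 215 and 113 CPM, a log2 ratio of -0.92 (-1.01 to -0.83), the lowest of 30 other pan-endothelial genes. Flt1, which binds the same ligand, was at 107 and 122 CPM. The number of Kdr UMIs per Flt1 UMI was 2.00 (1.88 to 2.12) in the control and 0.93 (0.87 to 1.00) in the transgenic section.

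Of the 30 other pan-endothelial genes 19 were higher and 11 lower, which is close to the 63.2% of all genes that were higher, with a median log2 ratio of 0.12, which the shift of -0.16 with TMM factors would bring below 0. S1pr1, the sphingosine-1-phosphate receptor, was the highest at 1.27. Over all 92 genes of the further endothelial lists, 63 were higher and 29 lower, with a median log2 ratio of 0.32. At least 2-fold higher were 20 (13.7% of all genes), and at least 2-fold lower were 5 (5.61% of all genes). Arterial and endocardial lists thus stood above the median gene at 0.20 and the capillary and other pan-endothelial lists below it, and no test of these differences was possible.

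**Figure D4:**
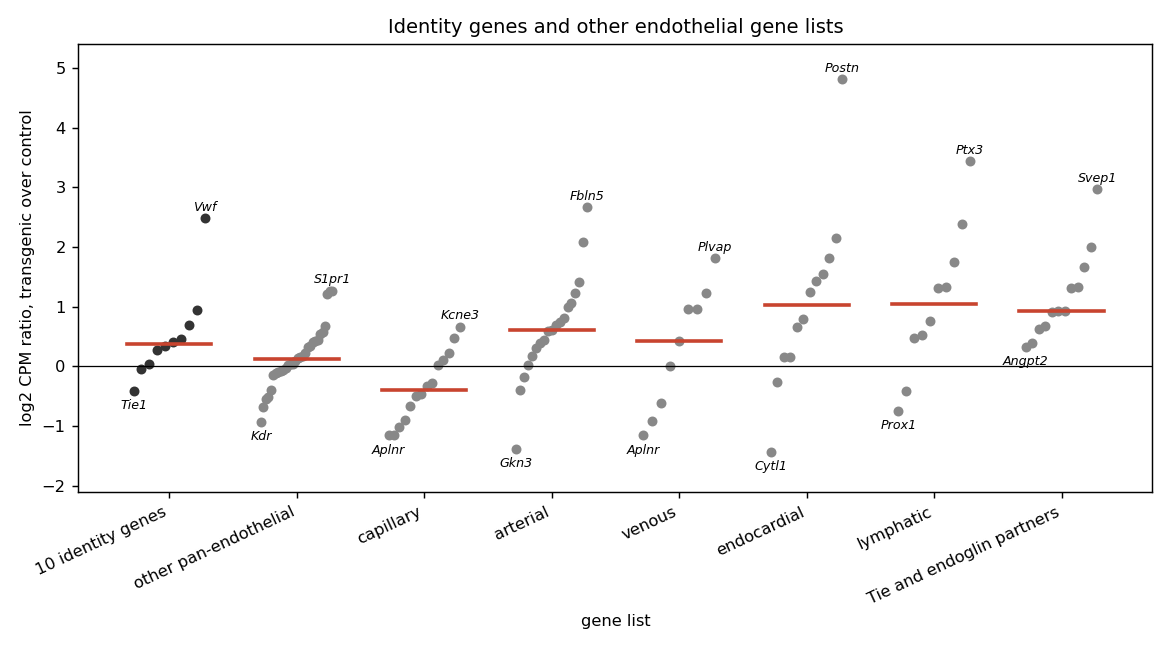
Log2 CPM ratio, transgenic over control, of the 10 identity genes (black) and of further endothelial gene lists (gray), with 1 point per gene with at least 20 UMIs, the list median as a red line and the lowest and highest gene named. The capillary median lies at -0.40, the arterial at 0.62 and the endocardial at 1.02, while the identity genes spread from Tie1 at -0.42 to Vwf at 2.48.

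As shares of all UMIs of the panel, which need no scaling between sections, Egfl7 went from 33.7% to 25.4% and Cdh5 from 20.5% to 16.5%. Vwf went from 2.30% (2.04 to 2.59) to 10.0% (9.54 to 10.6), and Eng from 18.6% to 23.5%. Tie1 went from 4.91% to 2.87% and Sox17 from 2.36% to 3.56%. The share of Emcn was 2.84% and 2.81%. Within the panel the transgenic section thus held a larger part of Vwf, Eng and Sox17 UMIs and a smaller part of Egfl7, Cdh5 and Tie1 UMIs than the control section. The shares add up to a fixed total, and in CPM Cdh5 and Egfl7 themselves were close to equal, at 1.03-fold and 0.965-fold.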

How the data were processed

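Visium CytAssist libraries from 1 section of each of 2 mice were analysed. Reads were processed by the authors in Space Ranger 2.0.0, and the submitters' processing notes name bcl2fastq and the build GRCm39/mm39; the probe set version is not given in the sources used here. The deposited values are raw UMI counts per gene and spot over tissue, not normalized, and Moran's I is a score per gene that the authors deposited and that was used as given. The deposited signal sums per gene equaled the sums of the counts for all genes.

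All spots of a section were added up, since they are no replicates, and the summed counts were scaled to CPM. Exact Poisson intervals (CPM), conditional binomial intervals (ratios) and Clopper-Pearson intervals (shares) at 95% cover counting error only. A count of 0 allows up to 3 counts, or 0.209 CPM (control) and 0.232 CPM (transgenic). A gene was compared where it had at least 20 UMIs over both sections. Edge spots touch a position without tissue, and gaps are such positions enclosed by tissue. The control had 137 outer edge and 91 gap edge spots, the transgenic section 129 and 178, and 1026 and 613 spots touched neither.

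The members and lists were chosen with earlier results of these data known. Named are all members, the highest and lowest gene of each list, the Tie and endoglin partners, set vessel markers, and the 3 genes most alike over tiles of at least 10 spots, among genes with at least 200 UMIs in each section. Id3, Tgfb1 and the other partners come from that list. Lpl, Fabp4, Myh6, Gas6, Nts, Fxyd6, Reln, Cd163, Mrc1, Timd4 and F13a1 were named after their values were seen. Alternatives used edgeR 4.0.16 and DESeq2 1.42.0 factors (R 4.3.3). Python 3.11.15, numpy 2.4.6, scipy 1.17.1, pandas 2.3.3 and matplotlib 3.10.9 were used. The code of the intervals was run on simulated counts that held counting error only, which cannot show how spots or animals spread.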

Additional observations from a re-analysis of the deposited data

How the results depend on the processing

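With 1 section per genotype, differences between animals, blocks and array areas cannot be told apart from genotype, and depth limits Lyve1 above all. No paired analysis was possible because each genotype has 1 section. Over 23 alternatives the number of members with a higher CPM in the transgenic section was 8, or 7 where the scaling changed (TMM, DESeq2 size factors, totals without the 50 most abundant genes, relative to the median gene or to the 6 pan-endothelial members), since Cdh5 then lay below 0. These scalings moved every log2 ratio by -0.16 (TMM), -0.15 (DESeq2) and -0.09 (without the 50 most abundant genes). The DESeq2 factors were 1 in both sections, so that setting compares raw UMI sums. Under TMM, DESeq2, the median gene and the pan-endothelial members the intervals of Tek and Emcn held 0. Those of Cdh5 and Egfl7 then lay below 0. The sum of the 6 pan-endothelial members holds Cdh5, Egfl7 and Tek themselves, so this scaling is no separate check of them. Each scaling shifted the intervals by a constant, and they hold no error of the scaling. No member whose reported interval excluded 0 changed direction, and of 230 values 36 lay outside the counting interval of the reported one. The median log2 ratio of the panel ranged from 0.16 to 0.39. Vwf ranged from 2.07, with the rings weighted as in the control, to 3.06, without the control quadrant with the highest Vwf. Tek ranged from 0.07 to 0.47, Emcn from 0.13 to 0.49, Tie1 from -0.63 to -0.35, Sox17 from 0.74 to 1.21 and Eng from 0.48 to 0.80. Counted as UMIs per spot in place of CPM, 2 members were higher at the gap edge and 1 at the outer edge in the control, and 2 and 3 in the transgenic section. Of the 92 further endothelial genes, 52 were higher with either TMM or DESeq2 factors in place of 63. The share of all genes that were higher with these factors was not counted. The ring weighting, the gaps of at least 20 positions, the lists without Postn or Prox1, the scaling to the pan-endothelial members and the settings without stray, outer edge, gap edge or erythroid edge spots were added after the data were seen.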
